A study of Mus musculus with 81 samples.

Results

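Short receptors were taken as the in-frame T-cell receptor β chain rearrangements whose CDR3, the loop that contacts peptide and MHC, had at most 11 residues. They made up 18108 of the 377937 in-frame rearrangements summed over 81 libraries, or 4.79%, and 32584 of 613408 templates, or 5.31%. A template is an estimated copy of one rearranged gene, and a rearrangement is one nucleotide sequence in one library. These members held 15814 distinct nucleotide sequences and 9262 distinct CDR3s. A pair of CDR3s of 12 residues were left out of every total. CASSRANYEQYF is that of OT-1, a transferred transgenic T-cell population that recognizes an ovalbumin peptide on H-2Kb. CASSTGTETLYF was present in 15 of 15 tumors, at 0.737 to 79.4% of in-frame templates, and in 4 of 66 blood libraries at no more than 0.0372%.

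The libraries came from genomic DNA of CD45.1 Pep Boy mice (B6.SJL-Ptprc<a> Pepc<b>/BoyJ) that carried or were challenged with EG7.OVA, an ovalbumin-expressing line of the EL4 lymphoma. In the treatment experiment, 15 tumor-bearing mice received 1e6 naive OT-1 cells and then, on days 0 and 3, 1e9 control murine red blood cells (mRBC-CTRL), or, at 2.5e8 or 1e9, red blood cells with the ovalbumin peptide complex, 4-1BBL and IL-12 on their surface (mRBC-OVA-4-1BBL-IL-12). Blood was drawn on day 0, soon after the OT-1 transfer and before dosing, and on day 7, when the tumor was also taken. Each arm had 5 mice, with 4 blood libraries for 1e9 on day 0 and for mRBC-CTRL on day 7. In the rechallenge experiment, 7 mice whose tumors had been cured by OT-1 transfer plus the 2.5e8 dose were bled on days 65 and 73, around an EG7.OVA challenge on day 66, and again before and after an EL4 challenge on day 127 (pre-EL4 and post-EL4). The 5 naive controls received 5e5 OT-1 cells and no red blood cells, and were bled on days 65 and 73. All mice had therefore received OT-1 cells, and no group without them was sampled. Blood and tumor DNA was not sorted by cell type, so that fewer T cells and less DNA recovered could not be told apart.

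A β chain is assembled in the thymus by joining 1 V, 1 D and 1 J segment. Nucleases trim the segment ends and terminal deoxynucleotidyl transferase adds N bases that no segment encodes, so that trimming shortens the CDR3 and N addition lengthens it. A CDR3 with few N bases needs few chance events, and such sequences are known to recur in many animals as public receptors. The first residue of a CDR3 is normally the conserved cysteine of V, and the last is the phenylalanine of J.

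Most members lay close to the limit. There were 14272 rearrangements of 11 residues, 3038 of 10, 513 of 9 and 162 of 8, while 40548 rearrangements of 12 residues lay just outside. The smallest CDR3 had 2 residues. Of the members, 18091 ended in phenylalanine. A total of 392 rearrangements with 520 templates did not begin with cysteine, and their median number of V bases deleted was 19, against 3 for members that did. The most frequent of these, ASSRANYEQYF, was counted 24 times in 12 mice. Its read is shown beside the OT-1 read, each with the reported CDR3 in capitals, because both end in the same bases.

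OT-1: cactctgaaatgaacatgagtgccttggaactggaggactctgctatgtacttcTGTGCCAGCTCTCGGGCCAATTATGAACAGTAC
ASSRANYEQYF: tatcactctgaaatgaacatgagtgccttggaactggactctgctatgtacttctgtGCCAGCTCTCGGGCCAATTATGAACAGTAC

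The second read equalled the OT-1 read with 3 bases removed from the V part at base 33 of 87 (a repeat in the sequence lets the gap be placed up to 3 bases later), and its CDR3 start was called 1 codon later. Each read stops 1 codon before the closing phenylalanine. Members that lacked the cysteine, or that equalled either left-out CDR3 with 1 residue deleted, together numbered 417 with 558 templates. They formed 0.942 to 4.51% of short rearrangements in 14 of the 15 groups and 10.7% in the tumors of mice given 1e9, which held only 159 short rearrangements. They were kept as the rule requires.

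In blood, the junctions of short receptors held fewer added bases and more trimming. Because a CDR3's length is the sum of these parts, at least one of them had to differ, and the values are given as a description with no test. With 1 value per mouse, short receptors carried 1.83 ± 0.313 N bases (SD, n = 27), against 3.50 ± 0.0461 in longer ones. Without members lacking the cysteine or 1 residue short of a left-out CDR3 the mean was 1.58 ± 0.0935. Receptors with no N base made up 30.3% ± 2.80 of short and 7.75% ± 0.333 of longer rearrangements, with the short share higher in 27 of 27 mice. Trimming was deeper for V, D and J segments. The D value sums both ends and covers only rearrangements with a resolved D segment. Short receptors had lost 4.01 ± 0.396 V bases, 8.35 ± 0.132 D bases and 5.13 ± 0.147 J bases, against 2.56 ± 0.0323, 5.98 ± 0.0413 and 2.68 ± 0.0312. No D segment could be resolved in 21.5% ± 2.07 of short rearrangements and in 1.45% ± 0.213 of longer ones. In 15 tumors short receptors carried 2.58 ± 1.02 N bases against 3.66 ± 0.0695, or 1.71 ± 0.337 without those members. In the tumors of mice given 1e9 the mean was not lower, at 3.73 ± 0.904 against 3.69 ± 0.0994, and it was higher in short receptors in 2 of 5 mice. Members lacking the cysteine or 1 residue short of a left-out CDR3 formed 10.7% of short rearrangements there. The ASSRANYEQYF read was deposited with 33 N bases, against 4 for the OT-1 read. The mean without such members is not given for these tumors alone. Over the 15 tumors the share without N bases was 26.2% ± 7.26 for short and 7.74% ± 0.659 for longer receptors, again higher in 15 of 15 mice.

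**Figure D1:**
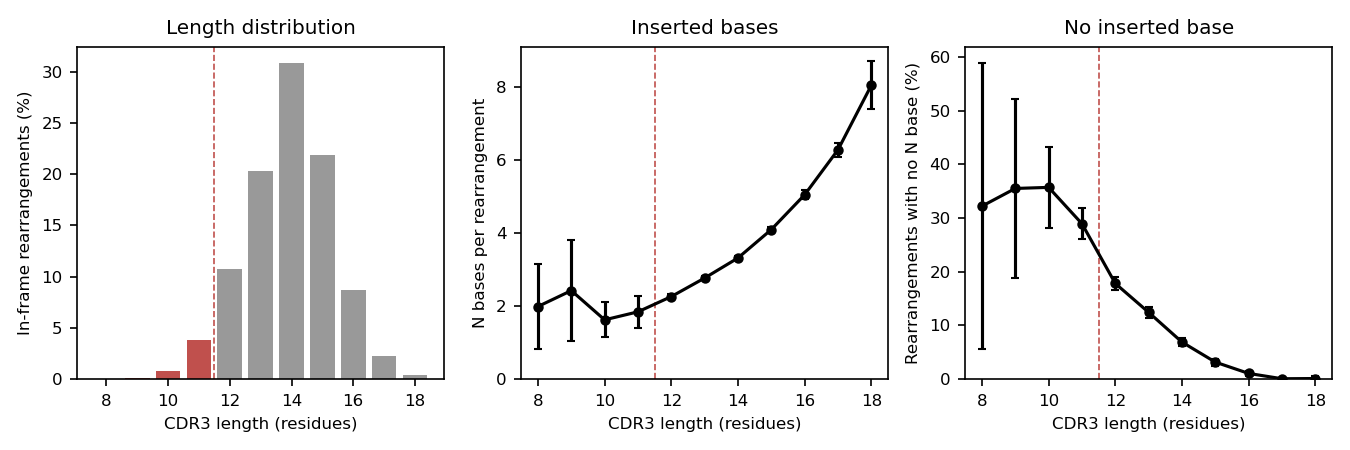
The left panel plots the share of in-frame rearrangements (%) at each CDR3 length in residues, with lengths of at most 11 in red, and the dashed line marks the limit. The other panels plot N bases per rearrangement and the share of rearrangements with no N base (%) in blood, as means and SD over mice. The share with no N base fell from 28.9% at 11 residues to 17.8% at 12 and 6.89% at 14.

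J segment use differed between short and longer receptors. J segments contribute germline residues to the CDR3, so their use is tied to the length that defines the 2 classes. The tests below therefore describe the size and regularity of the differences. TCRBJ02-07, whose germline end reads YEQYF, made up 36.5% ± 2.74 of short and 18.1% ± 0.578 of longer rearrangements in blood (SD, n = 27 mice). TCRBJ01-01, which ends in TEVFF, made up 19.6% ± 2.82 and 10.6% ± 0.552. They were higher in short receptors in 27 and 26 of 27 mice, respectively (2-sided sign-flip permutation test over mice, 100000 resamples, p = 1e-05, the smallest they can give, also the smallest for 10 of the 12 J segments tested). Among the 12 segments, 2 were higher, 9 were lower and 1, TCRBJ02-05, did not pass (11.3 against 12.2%, permutation p = 0.0796). The largest falls were in TCRBJ02-03, at 3.98% ± 1.31 against 8.64% ± 0.535, TCRBJ02-02, at 1.45% ± 0.621 against 5.98% ± 0.376, and TCRBJ01-04, at 3.97% ± 1.01 against 7.32% ± 0.427. Put the other way, 9.16% ± 0.851 of TCRBJ02-07 rearrangements were short, and 1.23% ± 0.552 of TCRBJ02-02 rearrangements. The preference did not depend on a single group. TCRBJ02-07 was used more by short than by longer receptors in 81 of 81 libraries, with group means of 32.5 to 45.2% against 17.3 to 21.0%.

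V segments differed in blood as well. V segments also contribute germline residues to the CDR3, so the same limit holds for their tests. TCRBV20-01 showed the largest rise, with 7.28% ± 1.78 of short and 3.24% ± 0.217 of longer rearrangements. It was followed by TCRBV13-02, a member of the Vβ8 family, at 13.8% ± 2.65 against 10.9% ± 0.448. TCRBV29-01 reached 5.47% ± 1.03 against 3.32% ± 0.334, and TCRBV31-01, which lies in inverted orientation downstream of the J segments, 7.38% ± 1.36 against 5.78% ± 0.356. The largest falls were in segments at the upstream end of the V cluster. TCRBV05-01 made up 2.32% ± 0.904 of short and 6.59% ± 0.340 of longer rearrangements, TCRBV02-01 2.65% ± 0.849 and 6.03% ± 0.420, TCRBV03-01 5.06% ± 1.43 and 7.97% ± 0.440, and TCRBV01-01 3.71% ± 1.28 and 5.77% ± 0.418. Of 22 V segments tested, 7 were higher and 8 lower in short receptors (Benjamini-Hochberg adjusted over the V segments, largest adjusted p among these 0.0296), and 7 did not pass. Without members lacking the cysteine or 1 residue short of a left-out CDR3, 8 were higher and 8 lower. In the 15 tumors, 2 of 21 V segments were higher, 5 lower and 14 did not pass. The largest rise there was in TCRBV13-02, at 18.7% ± 8.65 against 12.4% ± 1.19, followed by TCRBV20-01, at 7.56% ± 2.79 against 2.62% ± 0.419. TCRBV29-01 and TCRBV31-01 did not pass in tumors (exact sign-flip tests, adjusted p = 0.238 and 0.541). TCRBV05-01 was used less by short than by longer receptors in 81 of 81 libraries, and TCRBV20-01 more in 80 of 81.

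**Figure D2:**
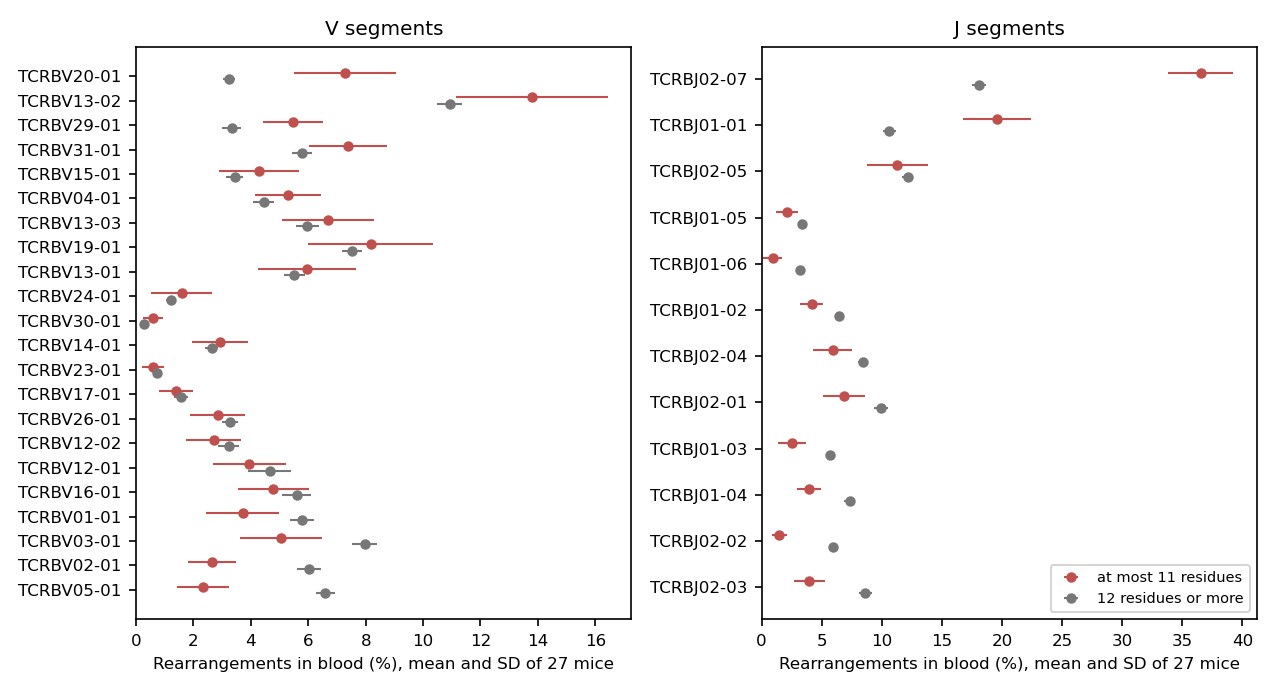
Points are the mean share of rearrangements in blood (%) using each V segment (left) and J segment (right), with SD over 27 mice, for CDR3s of at most 11 residues (red) and 12 residues or more (grey). TCRBJ02-07 and TCRBJ01-01 lie to the right in short receptors, at 36.5 and 19.6%.

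The share of short rearrangements varied little between libraries. It ranged from 3.86 to 6.06% over the 66 blood libraries (mean 4.79% ± 0.388) and from 3.78 to 5.53% over the 15 tumors (mean 4.47% ± 0.548). On day 0 the means were 4.72% ± 0.362 for mRBC-CTRL, 4.83% ± 0.180 for 2.5e8 and 4.50% ± 0.512 for 1e9. On day 7 they were 4.65% ± 0.151, 4.56% ± 0.400 and 5.01% ± 0.810. In cured mice the means on days 65 and 73, pre-EL4 and post-EL4 were 4.92, 4.98, 4.89 and 4.78%, and in naive mice on days 65 and 73 they were 4.70 and 4.65%. All groups overlapped their comparison groups in range. Endogenous templates, those other than the left-out CDR3s, ranged from 482 to 23605 per library, and the lowest, 1e9 mouse 5 on day 7, held 11 short rearrangements.

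Shares of templates spread more widely, most of all in tumors. In blood they ranged from 3.11 to 8.77% (mean 5.49% ± 0.873) and in tumors from 1.74 to 13.2% (mean 4.41% ± 3.17). In tumors of mRBC-CTRL mice 1 to 5 the short share was 2.28, 1.98, 3.19, 2.78 and 13.2%. In tumors of 2.5e8 mice it was 2.36, 3.54, 8.94, 1.74 and 4.65%, and in those of 1e9 mice 3.40, 7.33, 2.40, 5.38 and 3.02%. The mRBC-CTRL tumors thus held both low shares and the highest, and the arms overlapped. With the largest short rearrangement of each tumor taken out, the shares were 0.857 to 4.34%. Longer clones stayed in, so this removal could only lower a share. After the same removal in every library, group means were 2.02 to 2.65% in tumors and 4.56 to 5.56% in blood, a difference that was not tested.

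None of 36 comparisons of the 2 shares between arms, days, tissues or cured and naive mice passed adjustment (exact permutation tests over mice, 2-sided, Benjamini-Hochberg; smallest adjusted p = 0.75), and 1 had an unadjusted p under 0.05. That one was the share of templates on day 65, at 5.74% ± 0.510 in cured and 4.98% ± 0.413 in naive mice (exact permutation p = 0.0278, adjusted p = 0.75). Values on day 65 were 5.23 to 6.41% in the 7 cured and 4.42 to 5.48% in the 5 naive mice, so the groups overlapped. Without naive mouse 2, 4 or 5 the difference was 0.76, 0.614 or 0.7 points, against 0.755 with all mice, and the exact permutation p was 0.0515 to 0.0606. Cured libraries were deeper that day, at 7350 to 11991 endogenous templates against 3184 to 6192. The share of rearrangements on that day differed by 0.222 points (exact permutation p = 0.301), by 0.69 points after thinning every library to 482 templates (p = 0.0139) and by 1.19 points without rearrangements of 1 template (p = 0.0038). These p-values are unadjusted, and the share of templates was not thinned. Between mRBC-CTRL and treated tumors the differences in the share of templates were -0.44 points for 2.5e8 and -0.381 points for 1e9 (exact permutation p = 0.865 and 0.952). Without mRBC-CTRL mouse 5 they became 1.69 and 1.75 points. The share of templates was lower in the tumor than in day 7 blood in 4 of 5 mice given 2.5e8 and in 4 of 5 given 1e9, with mean differences of -1.37 and -0.903 points, and in 3 of 4 mRBC-CTRL mice, with a mean of -0.187 points that was -2.59 without mouse 5. Exact sign-flip tests within 4 or 5 mice cannot pass 0.05, since the smallest p they allow is 0.125 or 0.0625. Without members lacking the cysteine or 1 residue short of a left-out CDR3, the tumors of 1e9 mice differed from those of mRBC-CTRL mice by -0.634 points of short rearrangements (exact permutation p = 0.0397, an alternative chosen after seeing the data), against -0.304 points with all members (p = 0.444).

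**Figure D3:**
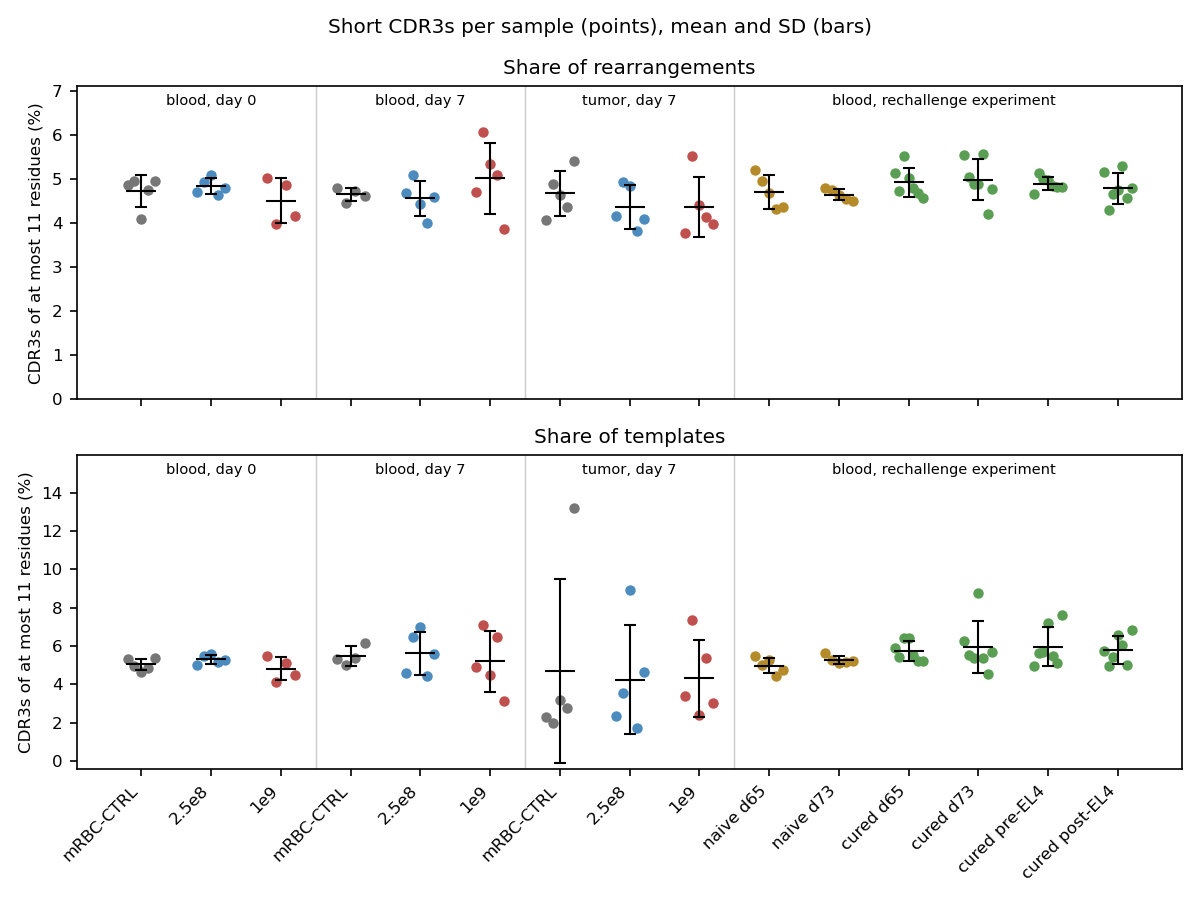
Each point is 1 library, and bars give the mean and SD of the group, for the share of rearrangements (top, %) and of templates (bottom, %) with CDR3s of at most 11 residues. Columns are mRBC-CTRL, 2.5e8 and 1e9 mice for blood and tumors, then naive and cured mice by day. The SD bar of the mRBC-CTRL tumors runs below 0, and tumor template shares run from 1.74 to 13.2%, while shares of rearrangements stay between 3.78 and 6.06% in every library.

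In blood, short rearrangements carried more templates each than longer ones. Their share of templates exceeded their share of rearrangements by 0.618 ± 0.541 points (SD, n = 27 mice), and did so in 25 of 27 mice (sign-flip permutation test, 100000 resamples, adjusted p = 2e-05). The mean was 1.60 ± 0.170 templates per short and 1.41 ± 0.112 per longer rearrangement. Pooled over all 81 libraries, tumors included, 63.6% of short and 74.0% of longer rearrangements had a single template. In that pool, CDR3s of 11 residues made up 3.78% of rearrangements and 4.29% of templates. Those of 12 residues, outside the limit, made up 10.7 and 12.2%, so the excess was not particular to short receptors. The shares were 0.804 and 0.812% at 10 residues and 0.136 and 0.133% at 9. With at most 10 residues the blood difference was 0.107 points (sign-flip permutation p = 2e-05). In tumors the short share of templates minus that of rearrangements was -0.0535 ± 2.85 points, above 0 in 5 of 15 mice (exact enumeration of sign flips, adjusted p = 0.948). The share of single-template rearrangements also differed between samplings, at 62.3 to 73.8% in the tumors and in blood of days 0 to 73 and 81.0 to 81.8% pre-EL4 and post-EL4, in all in-frame receptors, and its part in these values was not tested.

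Short CDR3s were more often found in both experiments. The CDR3s of a mouse were pooled over all its libraries, blood and tumor. In the 15 treatment mice, 51.7% ± 3.15 of the short and 39.0% ± 1.14 of the longer distinct CDR3s of a mouse were also present among the 12 rechallenge mice. In the 12 rechallenge mice, 40.7% ± 4.80 and 29.0% ± 1.94 were present among the 15 treatment mice. The short share was higher in 15 of 15 and in 12 of 12 mice (sign-flip permutation tests, adjusted p = 0.00012 and 0.00049). Over all 27 mice, 2283 of 9262 short CDR3s (24.6%) and 41594 of 227093 longer ones (18.3%) occurred in at least 2 mice. The share was 26.5% at 11 residues, 24.9% at 12, 21.9% at 14 and 8.82% at 16, but 21.6% at 10 and 13.2% at 9, so that the shortest CDR3s were shared less than those at the limit. At the level of bases, 1174 of 15814 short rearrangements (7.42%) occurred in at least 2 mice. Of those shared, 54.9% had no N base, against 23.0% of those found in 1 mouse.

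**Figure D4:**
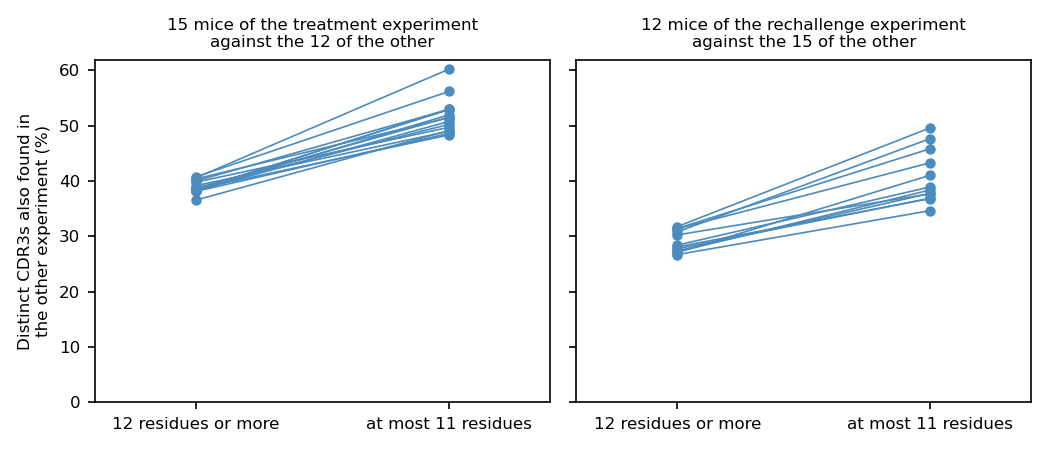
Each line is 1 mouse and joins the share of its distinct CDR3s of 12 residues or more (left) and of at most 11 residues (right) that was also found in the other experiment (%). All 15 and all 12 lines rise, from means of 39.0 and 29.0% to 51.7 and 40.7%.

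The most widely shared short CDR3s were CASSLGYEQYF and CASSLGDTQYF, each in 22 mice, and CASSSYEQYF, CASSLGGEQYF and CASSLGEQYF, each in 21. None was large, as their largest counts in a library were 3 to 7 templates. They were built in many ways. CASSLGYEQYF came from 49 nucleotide sequences with 12 V segments, and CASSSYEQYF from 23 sequences with 11. The 2 nucleotide sequences found in most mice, 15 each, are shown with the CDR3 in capitals. Both lack N bases and use TCRBJ02-07, the first with TCRBV13-02 (71 templates) and the second with TCRBV04-01 (54 templates).

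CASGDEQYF: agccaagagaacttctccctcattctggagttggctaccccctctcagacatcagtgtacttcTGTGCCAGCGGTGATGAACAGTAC
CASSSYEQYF: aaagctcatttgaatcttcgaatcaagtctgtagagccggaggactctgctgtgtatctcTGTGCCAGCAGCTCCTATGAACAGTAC

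Within a library, 6.33% ± 2.28 of short CDR3s were made by more than 1 nucleotide sequence, against 4.94% ± 0.705 of longer ones. The short share was higher in 20 of 27 mice (sign-flip permutation test, unadjusted p = 0.0029). The difference did not pass with at most 10 residues (0.786 points, permutation p = 0.112), in the treatment experiment alone (1.22 points, p = 0.0698) or in tumors, at 8.20% ± 4.05 against 7.00% ± 1.11 and higher in 9 of 15 mice (permutation p = 0.306).

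Productive receptors were compared with out-of-frame rearrangements, which make no protein. In blood, 4.76% ± 0.306 of in-frame and 3.05% ± 0.309 of out-of-frame rearrangements had a CDR3 of at most 33 bases, higher in frame in 27 of 27 mice (sign-flip permutation p = 1e-05). The direction depended on the limit. No out-of-frame rearrangement has a length that is a multiple of 3, so 33 bases itself occurs only in frame, and with a limit of 34 bases out of frame the difference was -0.249 points (permutation p = 0.0029).

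The highest tumor value, 13.2% of templates in mRBC-CTRL mouse 5, was 3.00% without its largest short clone. The 10 largest short rearrangements, by share of endogenous templates in any library, included 7 with TCRBJ02-07, and for 6 of the 10 the highest share with at least 10 templates was in a tumor. The largest, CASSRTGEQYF with TCRBV14-01 and TCRBJ02-07, had 0 of 4983 templates in day 0 blood of mRBC-CTRL mouse 5. The floor of 3 templates was 0.0602% there, and the upper Wilson 95% limit was 0.0770%. It had 82 of 5002 (1.64%) in day 7 blood and 1244 of 11822 (10.5%, Wilson 95% interval 9.98 to 11.1%) in the tumor. The same CDR3 with the same V and J segments was also the third largest. In blood of cured mouse 4 it had 77 of 9822 templates (0.784%) at day 65, 215 of 6373 (3.37%, interval 2.96 to 3.85%) at day 73, 133 of 10832 (1.23%) pre-EL4 and 209 of 16202 (1.29%) post-EL4. On day 73 it was the largest endogenous rearrangement of that mouse. The 2 mice belonged to different experiments, and their nucleotide sequences, shown with the CDR3 in capitals, differed at 4 of 87 bases.

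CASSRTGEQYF, mRBC-CTRL mouse 5: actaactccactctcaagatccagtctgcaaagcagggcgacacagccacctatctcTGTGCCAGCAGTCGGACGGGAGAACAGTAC
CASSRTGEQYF, cured mouse 4: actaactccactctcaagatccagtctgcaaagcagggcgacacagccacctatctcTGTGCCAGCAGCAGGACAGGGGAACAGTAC

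Counted from the 5′ end, the differences from the first to the second were T69C, C70A, G75A and A78G, all within the CDR3. The first sequence carried 5 N bases and the second 2. Elsewhere the CDR3 was found in 1 other mouse, as 1 template in the tumor of 2.5e8 mouse 3. The exact bases of the first sequence were found in 1 mouse besides mRBC-CTRL mouse 5, as 1 template. Those of the second were found in no other mouse. Whether the 1 copy of the first sequence arose separately was not tested. A CDR3 that differs by 1 residue, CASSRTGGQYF, also with TCRBV14-01 and TCRBJ02-07, had 18 of 2939 templates (0.612%) in day 7 blood and 23 of 2589 (0.888%) in the tumor of 2.5e8 mouse 4. It was looked for after the values of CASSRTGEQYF had been seen. TCRBV14-01 made up 2.93% ± 0.971 of short rearrangements in blood and did not pass the test against longer ones.

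The second largest clone, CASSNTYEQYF with TCRBV19-01 and TCRBJ02-07, had 0 of 9788 templates in day 0 blood of 2.5e8 mouse 3, 60 of 2482 (2.42%) in day 7 blood and 852 of 12615 (6.75%, interval 6.33 to 7.21%) in the tumor. It was found in no other mouse, and its sequence is shown with the CDR3 in capitals.

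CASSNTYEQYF: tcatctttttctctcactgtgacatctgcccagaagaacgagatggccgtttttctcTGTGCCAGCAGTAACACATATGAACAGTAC

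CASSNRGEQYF, with the same V and J segments, belonged to cured mouse 7. It had 11 templates (0.0917%) at day 65, 23 (0.49%) at day 73, 274 (2.50%) pre-EL4 and 160 (1.75%) post-EL4, and was its largest endogenous rearrangement pre-EL4. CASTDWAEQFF, with TCRBV29-01 and TCRBJ02-01, rose in 2.5e8 mouse 2 from 3 of 18519 templates on day 0 to 89 of 4900 (1.82%) in day 7 blood and had 131 of 8963 (1.46%) in the tumor. Of the remaining 5, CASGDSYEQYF reached 26 of 832 templates (3.13%) and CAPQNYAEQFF 8 of 832 (0.962%) in the tumor of 1e9 mouse 2. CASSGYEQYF reached 102 of 4241 (2.41%) in 1e9 mouse 4, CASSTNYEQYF 135 of 6727 (2.01%) in 2.5e8 mouse 5, and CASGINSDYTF 58 of 4037 (1.44%) in 1e9 mouse 3. Of the 8 large clones of the treatment experiment, 7 had 0 templates in day 0 blood and all 8 were present in both day 7 blood and the tumor. They were chosen for their size, so these rises are a description.

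**Figure D5:**
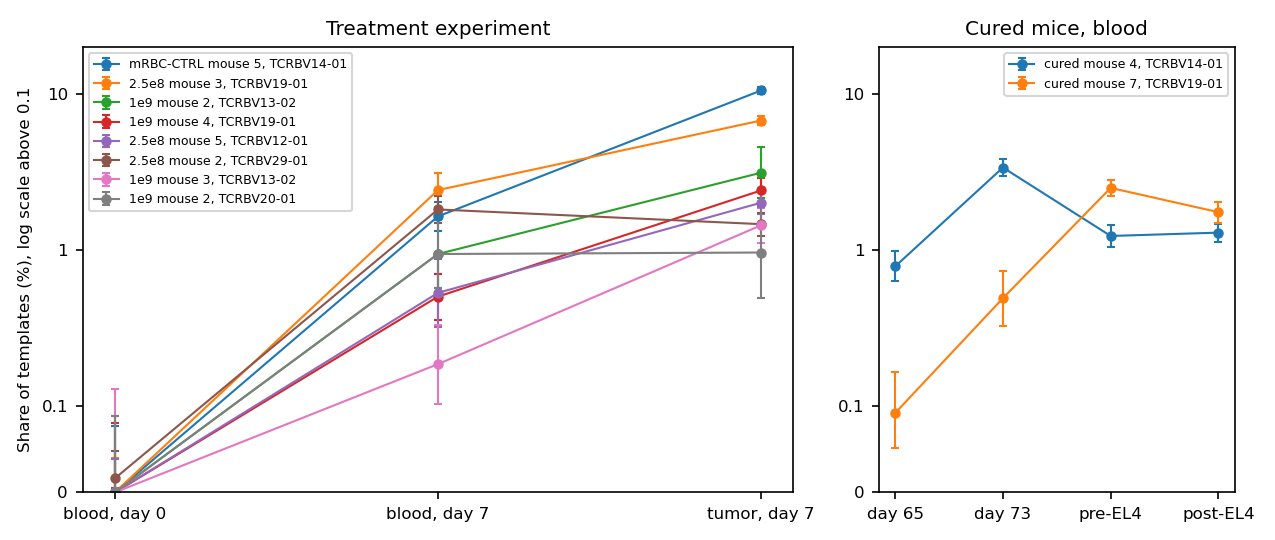
Shares of endogenous templates (%) of the 10 largest short rearrangements in the samples of the mouse that carried them, named by mouse and V segment, with Wilson 95% intervals. The vertical axis is logarithmic above 0.1% and linear below. The TCRBV14-01 clone of mRBC-CTRL mouse 5 went from 0 to 10.5% in the tumor, and that of cured mouse 4 peaked at 3.37% on day 73.

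Each rearrangement that reached 5 templates over both blood samples of a mouse was compared between them (Fisher's exact test, 2-sided), and one with a p under 0.05 after adjustment within that mouse was called. Such tests compare the 2 blood samples and leave out variation between draws. From day 0 to day 7, 4 of 6 short rearrangements tested in 4 mRBC-CTRL mice were called, 3 higher and 1 lower, against 38.7% of all in-frame rearrangements tested. In 5 mice given 2.5e8, 10 of 16 were called, all higher, against 62.8%, and in 4 given 1e9, 8 of 13, all higher, against 62.7%. Calls over all lengths ran the same way, with 120 higher and 3 lower for 2.5e8 and 108 higher and 3 lower for 1e9. In both treated arms the called shares of members, 62.5 and 61.5%, lay near the background. In naive mice from day 65 to 73, 2 of 5 were called, against 37.3%. In cured mice 2 of 19 were called from day 65 to 73, against 27.5%, 3 of 19 from day 73 to pre-EL4, against 24%, and 10 of 34 from pre-EL4 to post-EL4, against 23.2%. With at most 34 members tested per step, the shares of members were not tested against these.

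The 5 rises with the smallest adjusted p were all among the large clones. They were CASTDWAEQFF in 2.5e8 mouse 2 (adjusted Fisher's exact p = 2.57e-55), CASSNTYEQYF in 2.5e8 mouse 3 (1.92e-41), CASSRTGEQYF in cured mouse 4 from day 65 to 73 (2.21e-31) and in mRBC-CTRL mouse 5 (5.09e-24), and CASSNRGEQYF in cured mouse 7 from day 73 to pre-EL4 (2.95e-19). Among the 12 falls, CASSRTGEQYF in cured mouse 4 fell from 215 to 133 templates between day 73 and pre-EL4 (2.97e-19), and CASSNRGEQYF in cured mouse 7 from 274 to 160 between pre-EL4 and post-EL4 (0.0085). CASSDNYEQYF in cured mouse 6 went from 9 templates to 0 and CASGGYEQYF in cured mouse 4 from 8 to 0, both from pre-EL4 to post-EL4 (0.0069 and 0.0199). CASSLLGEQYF in naive mouse 1 went from 8 to 0 between days 65 and 73 (0.0233). Over all steps 39 of 112 members (34.8%) were called, 27 higher and 12 lower, against 495 of 1352 rearrangements of any length (36.6%), 365 higher and 130 lower.

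Short receptors of a tumor were also sought in day 7 blood of the same mouse. In 14 mice with both samples, 8.96% ± 6.29 of short and 7.66% ± 4.65 of longer tumor rearrangements were present in the blood (sign-flip permutation test, exact, p = 0.117). By templates the shares were 47.4% ± 26.7 and 60.1% ± 13.7 (exact p = 0.111). In 7 cured mice, 1.64% ± 0.490 of short rearrangements were found on at least 2 of the 4 days, against 0.902% ± 0.138 of longer ones, higher in 7 of 7 mice (exact sign-flip p = 0.0156, the smallest 7 mice allow, adjusted p = 0.0313). On all 4 days the shares were 0.0481% ± 0.0671 of short and 0.0514% ± 0.0188 of longer rearrangements, higher in short in 2 of 7 mice (exact sign-flip p = 0.938), with 5 short rearrangements over the 7 mice. These 2 relations were examined after other values had been seen. In blood, short rearrangements also carried more templates each and more often lacked N bases than longer ones. The part of either in finding a rearrangement on more than 1 day was not tested.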

How the data were processed

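Genomic DNA of blood and tumors was used for TCRβ libraries with the immunoSEQ assay, a V- and J-primed PCR that controls for unequal primer efficiency, and sequences were analysed by the authors with the immunoSEQ analyzer 3.0. The authors deposited raw template counts, 1 count per distinct sequence and sample, with V, D and J names, frame, base insertions and deletions, and the CDR3. The genome build is not given in the sources used here. Segment names matched RefSeq symbols (GRCm38.p6) for 22 of 22 V segments. No coordinates are printed, since the files name no build. Other deposited values describing the junction (lengths, deletions, insertions, CDR3 start) were used as deposited.

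Samples were grouped by the labels. Mouse 2 of the cured group is worded as mouse 1 in its day 73 label, where its animal code decided. Replicates are separate mice, and samplings of a mouse were paired by animal. The blood of mRBC-CTRL mouse 1 on day 7 and of 1e9 mouse 1 on day 0 was not analysed here. Members and lists were chosen with earlier results of these data known.

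Shares were computed per library without the left-out CDR3s and tested over mice with exact permutation tests (unpaired) or exact sign flips (paired), both 2-sided. Features and segment use were averaged over the blood libraries of a mouse, or taken from its tumor where tumors are named. Sharing used the distinct CDR3s of all libraries of a mouse, tumors included. Tests were sign flips (100000 resamples above 15 mice), and V or J segments with under 0.5% were left out. p-values were adjusted by Benjamini-Hochberg within each family. Wilson 95% intervals and floors of 3 templates cover counting error only. Named items are the 10 largest short rearrangements (at least 10 templates), the 5 short CDR3s in most mice, the 5 smallest adjusted p per direction, and the 4 V and 3 J segments with the largest rise and fall. Alternatives changed the length limit, the left-out CDR3s, single-template rearrangements, depth, scale, pairing and the mice included. The Fisher and permutation procedures were tested on simulated data. Python 3.11.15, numpy 2.4.6, scipy 1.17.1 and pandas 2.3.3 were used.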

Additional observations from a re-analysis of the deposited data

Results flagged for a closer look

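Each of the 15 groups was searched for a lone high or low mouse in the 2 shares, 30 searches in which chance flags about 1.5. In day 0 blood of mRBC-CTRL mice, mouse 3 had 4.09% of short rearrangements, apart from the others. In cured mice on day 73, mouse 4 had 8.77% of short templates, of which the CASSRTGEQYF clone was 3.37 points of all endogenous templates. In mRBC-CTRL tumors, mouse 5 had 13.2% of short templates, with 10.5 points from the same CDR3. Among 14 differences of changes between arms, 1 had an unadjusted p under 0.05. From day 7 blood to tumor, the share of short rearrangements changed by -0.642 points in 5 mice given 1e9 and by 0.171 points in 4 mRBC-CTRL mice, a difference of -0.813 points (exact permutation p = 0.0397, adjusted p = 0.481).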

How the results depend on the processing

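Of 590 alternative values for 53 results, 514 kept direction and side of the 0.05 threshold, 61 reversed, and 15 were weaker, stronger or moved; none of the reversed differences between groups was past adjustment in the report. Differences are in percentage points of the share and named as first minus second. With at most 10 residues, rearrangement shares reversed for 1e9 minus mRBC-CTRL on day 0 (0.0559), 2.5e8 minus mRBC-CTRL on day 7 (0.158), day 7 minus day 0 in mRBC-CTRL (0.0687) and 2.5e8 (0.193), cured day 73 minus 65 (-0.0658), pre-EL4 minus day 73 (0.014) and post-EL4 minus pre-EL4 (0.0382), and naive day 73 minus 65 (0.0801). Template shares reversed for 1e9 minus mRBC-CTRL on day 0 (0.0381), day 7 (0.0485) and in tumors (0.438), and for cured day 73 minus 65 (-0.131) and post-EL4 minus pre-EL4 (0.099), the share of CDR3s made more than once differed by 0.786, and the tumor clone size difference was -0.372. Without rearrangements of 1 template, rearrangement shares gave -0.365 for 1e9 minus mRBC-CTRL on day 7, 0.385 for mRBC-CTRL day 7 minus 0, -0.377 for mRBC-CTRL tumor minus blood, 0.393 for cured pre-EL4 minus day 73, 0.274 for post-EL4 minus pre-EL4, 0.892 for naive day 73 minus 65 and 1.19 for cured minus naive on day 65 (exact permutation p = 0.0038), and template shares gave -0.0511 for 2.5e8 minus mRBC-CTRL on day 7 and 0.0509 for cured post-EL4 minus pre-EL4. After thinning to 482 templates, rearrangement shares gave 0.0194 for 2.5e8 minus mRBC-CTRL tumors, 0.225 for mRBC-CTRL day 7 minus 0, -0.0755 for cured day 73 minus 65, 0.264 for naive day 73 minus 65 and 0.69 for cured minus naive on day 65 (exact permutation p = 0.0139). Without members lacking the cysteine or 1 residue short of a left-out CDR3, chosen after seeing the data, the values were -0.634 for 1e9 minus mRBC-CTRL tumors and 0.0084 for mRBC-CTRL day 7 minus 0 (rearrangements), -0.00926 for cured pre-EL4 minus day 73 (templates) and 0.0962 for tumor clone size. With all in-frame templates in the denominator, which adds the left-out CDR3s to it, template shares gave -3.29 for 1e9 minus mRBC-CTRL on day 7 (exact permutation p = 0.0079), 0.465 for 2.5e8 minus mRBC-CTRL tumors, -1.45 for 1e9 day 7 minus 0, -1.19 for cured day 73 minus 65, 1.06 for pre-EL4 minus day 73 and -0.794 for cured minus naive on day 73. On the log2 scale of percent plus 0.1, tumor template shares differed by 0.0364 for 2.5e8 and 0.167 for 1e9. In the treatment experiment alone, CDR3s made more than once differed by 1.22 (permutation p = 0.0698). The out-of-frame limit of 34 bases gave -0.249. Further values above had an unadjusted p under 0.05. With at most 10 residues they were the tumor clone size (exact sign-flip p = 0.0245) and template shares for cured day 73 minus 65 (p = 0.0313). With all in-frame templates they were template shares for cured day 73 minus 65 (exact sign-flip p = 0.0313) and pre-EL4 minus day 73 (p = 0.0156). The 39 calls within mice became 20 for a minimum of 10 templates, and 20 for a threshold of 0.01. Except where a construction is named, the cause was not tested.

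Leaving out 1 mouse at a time reversed or changed the call of 17 differences. Without cured mouse 6, cured minus naive on day 73 was 0.467 points of rearrangements (exact permutation p = 0.0173, unadjusted). Rearrangement shares ranged from -0.0446 to 0.172 for 2.5e8 minus mRBC-CTRL on day 0, -0.222 to 0.0529 on day 7, -0.168 to 0.0716 for mRBC-CTRL day 7 minus 0, -0.0355 to 0.351 for mRBC-CTRL tumor minus blood, -0.0585 to 0.178 for cured day 73 minus 65, -0.211 to 0.0384 for pre-EL4 minus day 73, -0.207 to 0.0143 for post-EL4 minus pre-EL4, -0.126 to 0.0304 for naive day 73 minus 65, and 0.240 to 0.467 for cured minus naive on day 73. Template shares ranged from -0.1995 to 0.437 for 2.5e8 and -0.736 to 0.257 for 1e9 minus mRBC-CTRL on day 7, -1.61 to 1.69 and -1.14 to 1.75 in tumors, -2.59 to 0.872 for mRBC-CTRL tumor minus blood, -0.166 to 0.405 for cured day 73 minus 65, -0.294 to 0.288 for pre-EL4 minus day 73, and 0.614 to 0.879 for cured minus naive on day 65. Mouse numbers in different arms name different animals, and deviations of same-numbered mice correlated at -0.168 (templates) and 0.292 (rearrangements) over 41 pairs in the treatment and at -0.0618 and 0.089 over 10 pairs in the rechallenge experiment. With the number as a replicate block, cured minus naive on day 65 was 0.957 points of templates (exact sign-flip p = 0.0625, the smallest 5 pairs allow), and no other call changed. Groups of 4 or 5 mice and as few as 11 short rearrangements in a library limit every comparison of shares.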
